A study of Mus musculus with 2 samples.

Results

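The genes described here are a list drawn up under the heading of Eph receptors and ephrins of crypt positioning, with 6 receptors and 4 ligands. These 10 genes were taken by symbol out of 45706 Ensembl gene IDs in the count files. The receptors are Ephb2, Ephb3, Ephb4, Epha2, Epha4 and Epha7, and the ligands are Efnb1, Efnb2, Efna1 and Efna4. The genes are taken by name and not by their counts, but the list was drawn up with earlier results of these data known. RNA was sequenced from mouse intestinal stem cells of the Lgr5-EGFP-IRES-creERT2 strain, sorted for high GFP at 4 months of age. A cassette in the Lgr5 locus makes GFP in the stem cells at the crypt base, and both libraries carry it. 1 library came from mice fed standard chow ad libitum (fed) and 1 from mice under fasting (fasted). How long the fast lasted and how many mice gave each library is not given in the sources used here.

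Eph proteins are receptor tyrosine kinases, and their ligands, the ephrins, are held on the surface of neighbouring cells. Ephrin-B ligands span the membrane and can signal into their own cell, while ephrin-A ligands are attached by a lipid anchor. In the intestine Ephb2 and Ephb3 are transcribed under WNT and beta-catenin control and are highest near the crypt base, whereas ephrin-B ligands increase toward the villus. Repulsion between the cells that carry them keeps stem cells, Paneth cells and differentiating cells in their places.

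The fed library held 6985316 counts and the fasted library 5020056, and levels are given as counts per 1000000 of the library's counts (CPM), on which scale a single read stands for 0.143 (fed) or 0.199 (fasted). Ratios are the scaled fasted count over the scaled fed count (median-of-ratios factors), with an exact 95% interval that covers counting error only. With 1 library per group there is no replicate check and no test, and every difference describes these 2 libraries. To be called higher or lower, a gene needed a ratio of 2-fold or more and an interval that left out 1. The marker genes of the sorted cells were present in both libraries, with 3381 fed and 1709 fasted counts for Lgr5, 100399 and 41452 for Olfm4 and 947 and 721 for Ascl2. In bulk RNA, fewer cells of a type and less RNA per cell cannot be told apart.

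The promoter sequences below show the canonical receptor and ligand pair, Ephb2 and Efnb1, the members with the lowest and highest ratios, Epha4 and Efna4, and the member with a TCF/LEF match, Epha2. They are the 250 bases before the RefSeq transcription start on GRCm38.p6, written 5′ to 3′ on the strand of the gene. Their positions are chr4:136836013-136836262 (minus strand), chrX:99135811-99136060 (plus), chr1:77515089-77515338 (minus), chr3:89338029-89338278 (minus) and chr4:141300971-141301220 (plus). Capitals mark matches to CTTTGA, a core of TCF/LEF sites, or TGGGAA, a core of RBPJ sites, each searched on both strands.
Ephb2: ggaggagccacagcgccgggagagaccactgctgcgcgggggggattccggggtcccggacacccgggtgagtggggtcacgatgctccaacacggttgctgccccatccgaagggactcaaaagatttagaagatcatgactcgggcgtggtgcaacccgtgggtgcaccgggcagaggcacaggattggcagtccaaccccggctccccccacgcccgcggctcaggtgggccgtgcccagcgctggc
Efnb1: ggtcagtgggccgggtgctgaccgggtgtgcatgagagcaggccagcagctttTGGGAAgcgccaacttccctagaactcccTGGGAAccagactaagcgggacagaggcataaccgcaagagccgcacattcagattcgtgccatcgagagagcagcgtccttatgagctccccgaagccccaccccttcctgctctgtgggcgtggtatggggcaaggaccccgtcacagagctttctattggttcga
Epha4: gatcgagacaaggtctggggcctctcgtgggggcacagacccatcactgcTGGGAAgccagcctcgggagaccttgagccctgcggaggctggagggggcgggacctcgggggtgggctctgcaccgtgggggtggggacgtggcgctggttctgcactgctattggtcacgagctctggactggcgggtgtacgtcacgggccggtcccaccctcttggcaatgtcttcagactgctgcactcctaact
Efna4: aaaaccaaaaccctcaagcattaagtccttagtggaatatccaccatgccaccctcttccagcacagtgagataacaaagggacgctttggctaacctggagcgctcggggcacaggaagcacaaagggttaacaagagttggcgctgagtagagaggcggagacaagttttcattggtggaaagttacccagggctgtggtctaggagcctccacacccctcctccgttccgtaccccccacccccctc
Epha2: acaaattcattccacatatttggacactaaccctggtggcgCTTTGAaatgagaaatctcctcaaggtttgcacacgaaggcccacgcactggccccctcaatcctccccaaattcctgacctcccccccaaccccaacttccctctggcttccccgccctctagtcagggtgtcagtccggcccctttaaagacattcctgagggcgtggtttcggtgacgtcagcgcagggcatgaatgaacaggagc

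All 10 members were found in the RefSeq promoter table, in 12 windows. The CTTTGA core occurred in the window of 1 member, Epha2, at 209 to 204 bases before the start, and in 13.8% of all 32851 windows of this length. In at least 1 of their windows, 3 members held the TGGGAA core. It occurred in 21.6% of all windows, which is a share of windows and not of genes. Efnb1 held it at 197 to 192 and again at 168 to 163 bases before the start, Epha4 at 200 to 195, and Epha7 at 93 to 88 in the upstream one of its windows. The windows of the members were rich in G and C, from 54.4% for Efna4 to 72.0% for Efnb2, where the median of all windows was 52.4%. A match describes letters in a window, and these counts bear only on these 250 bases.

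None of the 10 members was called in either direction. All 10 passed the filter on low counts, set at 1 CPM on average and 20 counts in sum, and all 10 ratios lay within 2-fold. Of 12026 measured genes, 2.51% were called higher and 1.91% lower, and 94.7% had ratios within 2-fold, so a count of 0 among 10 is near the background. Below that threshold the 6 receptors all had negative log2 ratios, while the 4 ligands lay on both sides of 0. The lowest ratio was that of Epha4 and the highest that of Efna4.

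**Figure D1:**
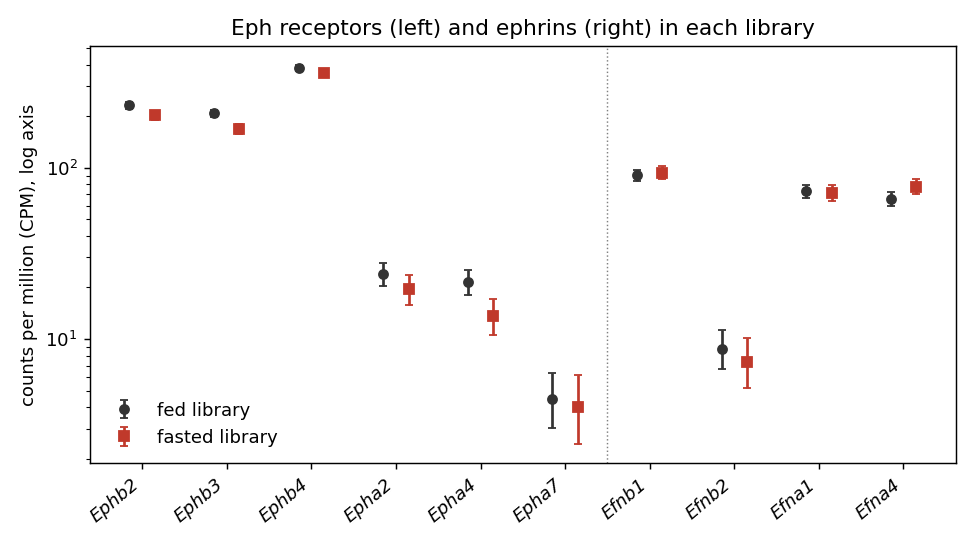
Level of each member in CPM (log axis) in the fed library (circles) and the fasted library (squares), with exact 95% Poisson intervals that cover counting error, receptors left and ligands right of the dotted line. Ephb4, at 384 and 359 CPM, had the most reads, and Epha7, at 4.44 and 3.98 CPM, the fewest.

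Ephb2, the receptor most used to mark the crypt gradient (ENSMUSG00000028664, chromosome 4, 136647539 to 136835988), had 1618 fed and 1017 fasted counts. This is 232 CPM (220 to 243) against 203 CPM (190 to 215), so that the fasted library was the lower of the pair. Its log2 ratio was -0.17 (-0.29 to -0.06), an interval that leaves out 0 and stays far from 2-fold.

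Ephb3, which is also made in Paneth cells (ENSMUSG00000005958, chromosome 16, 21204755 to 21223305), had 1452 fed and 848 fasted counts. Its level was 208 CPM (197 to 219) in the fed library and 169 CPM (158 to 181) in the fasted library, without overlap of the counting intervals. The log2 ratio of -0.28 (-0.40 to -0.16) was the lowest of the EphB receptors. Of 9 Paneth cell markers, 1, the metalloproteinase gene Mmp7, was called higher, 0 were called lower and 7 had negative ratios. Shares over all measured genes were 2.51% called higher, 1.91% called lower and 52.1% with a negative ratio. Summed, the 9 Paneth cell markers reached 1156 CPM (fed) and 1001 CPM (fasted), and their part in the Ephb3 value was not tested.

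Ephb4, a receptor for Efnb2 best known from veins (ENSMUSG00000029710, chromosome 5, 137350109 to 137378669), had 2683 fed and 1802 fasted counts. These are 384 CPM (370 to 399) and 359 CPM (343 to 376), with overlapping intervals. On the log2 scale the ratio was -0.08 (-0.16 to 0.01), and total-count scaling brought it to -0.10, with an interval below 0. Most endothelial markers were at or near 0: Cdh5 had 1 fed and 0 fasted counts, Pecam1 had 3 and 1, and Kdr, Tie1, Emcn, Erg and Sox17 had 0 in both. The 11 endothelial markers summed to 28.1 and 25.7 CPM, most of it from the junction gene Esam (165 and 113 counts), while Vwf, the gene of von Willebrand factor, had 26 and 13 counts. Exons of Ephb4 share 33 bases with Zan on the opposite strand, which had 519 and 490 counts, and the counting's strand setting is not given in the sources used here.

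The EphB receptors stood in the same order of counts in both libraries. Ephb4 took 46.6% of their counts in the fed library (45.3 to 47.9, exact binomial 95% interval) and 49.1% (47.5 to 50.8) in the fasted library. Ephb2 took 28.1% (27.0 to 29.3) and 27.7% (26.3 to 29.2), and Ephb3 took 25.2% (24.1 to 26.4) and 23.1% (21.8 to 24.5). The intervals overlapped for each of the 3 genes, which does not show that the shares were equal, and their differences were not tested. Per kilobase of exon Ephb4 was the most abundant of all members, at 82.8 CPM per kilobase (fed) and 77.4 (fasted).

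Among the EphA receptors, which carried few reads, Epha4 stood lowest. Epha4, a receptor that binds ephrins of both classes (ENSMUSG00000026235, chromosome 1, 77367185 to 77515088), had 150 fed and 68 fasted counts. These are 21.5 CPM (18.2 to 25.2) and 13.5 CPM (10.5 to 17.2), and the intervals did not overlap. The ratio was -0.64 on the log2 scale (-1.08 to -0.22), a level 1.56-fold lower in the fasted library, and 6.24% of measured genes had a lower ratio. It would be called at a threshold of 1.5-fold, which 5.05% of measured genes pass in that direction.

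Epha2, a receptor for Efna1 found on many epithelial cells (ENSMUSG00000006445, chromosome 4, 141301240 to 141329384), had 167 fed and 98 fasted counts. The log2 ratio was -0.27 (-0.65 to 0.10), and its levels of 23.9 CPM (20.4 to 27.8) and 19.5 CPM (15.8 to 23.8) overlapped. Epha7, another receptor of ephrin-A ligands (ENSMUSG00000028289, chromosome 4, 28813131 to 28967499), had 31 fed and 20 fasted counts, which gave a log2 ratio of -0.13 (-1.02 to 0.72). At that depth a 1.5-fold difference of Epha7 in either direction was not detectable. The 3 EphA receptors together had 348 and 186 counts, and EphB receptors made up 94.3% (93.7 to 94.9) and 95.2% (94.4 to 95.8) of all receptor counts.

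**Figure D2:**
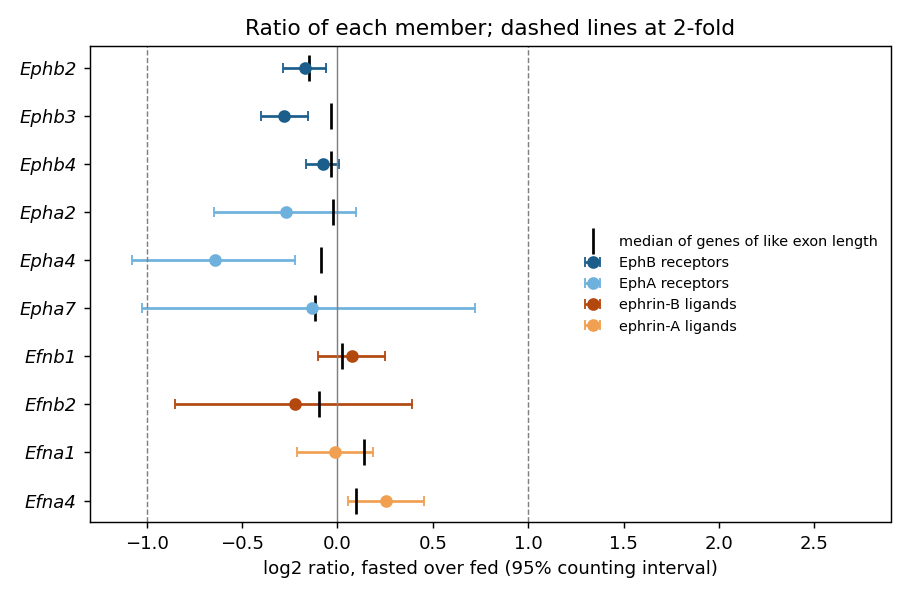
Log2 ratio of each member, fasted over fed, with 95% counting intervals; the dashed lines mark 2-fold and the black ticks the median ratio of the 201 measured genes nearest in exon length. All points lie between the dashed lines, with Epha4 at -0.64 and Efna4 at 0.26 as the extremes.

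Efnb1, the transmembrane ligand that signals to EphB receptors (ENSMUSG00000031217, chromosome X, 99136130 to 99148991), had 631 fed and 471 fasted counts. Its levels were 90.3 CPM (83.4 to 97.7) and 93.8 CPM (85.5 to 103), so the libraries overlapped. Its log2 ratio was 0.08 (-0.10 to 0.25). Efnb2, the other ephrin-B ligand here and known from arteries (ENSMUSG00000001300, chromosome 8, 8617434 to 8661242), had 61 and 37 counts. Its log2 ratio of -0.22 (-0.85 to 0.39) was the lowest of the ligands and the least precise of them.

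Efna1, an anchored ligand of EphA receptors (ENSMUSG00000027954, chromosome 3, 89271733 to 89281142), had 508 fed and 357 fasted counts, or 72.7 CPM (66.5 to 79.3) and 71.1 CPM (63.9 to 78.9). Its log2 ratio was -0.01 (-0.21 to 0.19), and its sign turned to 0.01 under upper-quartile scaling. Efna4, another ephrin-A ligand on the same chromosome (ENSMUSG00000028040, chromosome 3, 89333390 to 89338028), had 460 and 389 counts. These are 65.9 CPM (60.0 to 72.2) and 77.5 CPM (70.0 to 85.6), and the fasted library was the higher. The log2 ratio was 0.26 (0.06 to 0.45), the largest of the members. Efna4 shares 168 exon bases with an antisense gene, 4731419I09Rik, which had 6 counts in each library.

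Across the members, intervals lay below a ratio of 1 for 3 of 10 (Ephb2, Ephb3 and Epha4) and above it for 1 of 10 (Efna4). Among all measured genes the shares were 19.2% and 16.7%. Intervals narrow with depth, and Ephb2, Ephb3 and Efna4 have more reads than most genes. Of the 4938 genes with a mean of 50 to 500 CPM, which include these 3, 47.5% had an interval that left out 1 on either side. The log2 ratios of that class had a robust standard deviation, taken from the median absolute deviation, of 0.23. Negative ratios were seen for 8 of 10 members and for 52.1% of measured genes. The median log2 ratio was -0.15 over the 10 members and -0.02 over all measured genes, whose quartiles were -0.23 and 0.20. Members are not replicates of a condition, and these counts describe 10 genes chosen as a list.

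**Figure D3:**
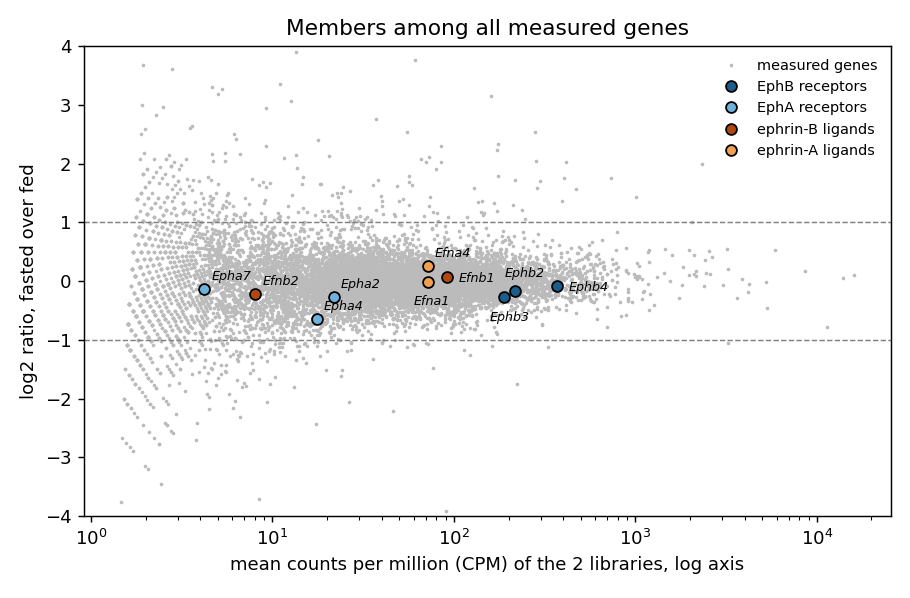
Log2 ratio, fasted over fed, against mean level in CPM (log axis) for the measured genes (grey) and the 10 members (coloured by class), with dashed lines at 2-fold and 20 genes outside the axis or without counts in 1 library not drawn. The members lie inside the main cloud, and Epha4 sits nearest its lower side.

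Ligands were contrasted with receptors by their medians and by their shares of reads. The median log2 ratio was -0.22 for the 6 receptors and 0.03 for the 4 ligands, a difference of 0.25. Within a library, where no scaling is needed, ligands made up 21.4% of the members' counts in the fed library (1660 of 7761, 20.5 to 22.3) and 24.6% in the fasted library (1254 of 5107, 23.4 to 25.8). The binomial intervals did not overlap, and the share was 3.17 percentage points larger in the fasted library. Counted per kilobase of exon, the ligand share was 43.5% and 48.0%, given without an interval. Division by length leaves the ratio of each gene unchanged. No share here or within a class was corrected for the trend of ratios with exon length given further below.

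The same shares were taken within each class. Ephrin-B ligands took 10.7% (9.99 to 11.5) of the EphB and ephrin-B counts in the fed library and 12.2% (11.2 to 13.2) in the fasted library, with overlapping intervals. Ephrin-A ligands took 73.6% (71.1 to 75.9) of the EphA and ephrin-A counts in the fed library and 80.0% (77.3 to 82.6) in the fasted library, without overlap. The difference of medians was 0.10 for EphB and ephrin-B genes and 0.39 for EphA and ephrin-A genes. Overlapping intervals do not show equal shares, and whether the classes differ from each other was not tested.

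Each ligand was then set against each receptor of its class, 12 pairs in all, with an exact conditional interval for the difference of log2 ratios. The ligand had the larger ratio in 10 of 12 pairs, and the exceptions were Efnb2 with Ephb2 and Efnb2 with Ephb4. The interval left out 0 in 5 pairs. For Efnb1 and Ephb2 the difference was 0.25 (0.04 to 0.46), as the fed library held 0.390 Efnb1 counts per Ephb2 count and the fasted library 0.463. Subtracting the median ratio of genes of like exon length brought it to 0.07 (-0.14 to 0.28). Efnb1 and Ephb3 differed by 0.35 (0.14 to 0.57), and Efnb1 and Ephb4 by 0.15 (-0.04 to 0.35). The widest difference was that of Efna4 and Epha4, 0.90 (0.43 to 1.38), from 3.07 to 5.72 Efna4 counts per Epha4 count. Efna1 and Epha4 differed by 0.63 (0.16 to 1.11), and Efna4 and Epha2 by 0.53 (0.11 to 0.95). The pairs share genes, so they are not independent of each other.

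**Figure D4:**
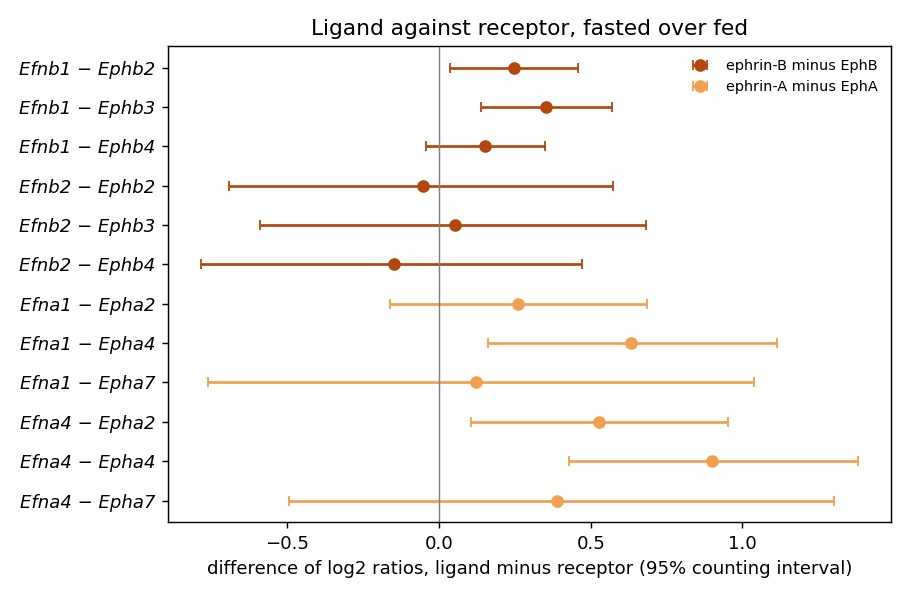
Difference of log2 ratios, fasted over fed, ligand minus receptor, for the 12 pairs within a class, with exact 95% conditional intervals that cover counting error. Most points lie right of 0, from -0.15 for Efnb2 and Ephb4 to 0.90 for Efna4 and Epha4.

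Receptor and ligand genes also differ in length, and ratios moved with length in these libraries. The Spearman correlation of exon length with the log2 ratio was -0.245 across 11992 measured genes, and genes are not independent replicates. Of 5 equal bins of length, the shortest, with Efna1 and Efna4, had a median log2 ratio of 0.12, and the longest, with Ephb2, Epha4 and Epha7, had -0.12. The median exon length was 7348 bases for the receptors and 2641 bases for the ligands. Genes of like length had a median of -0.15 where Ephb2 had -0.17, and of -0.03 where Ephb3 had -0.28. For Epha4 the corresponding values were -0.09 and -0.64, and for Efna4 they were 0.10 and 0.26.

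After subtraction of the median at each length, the receptors had a median of -0.14 and the ligands of -0.04, a difference of 0.11. All 6 receptors and 2 of 4 ligands were then negative, though Ephb2, Epha7 and Ephb4 lay near 0, none of them below -0.04. The negative ligands were Efna1, at -0.15, and Efnb2, at -0.13, both below those 3 receptors, and Epha2 lay at -0.25. The interval of Ephb2 then held 0, at -0.02, as did that of Efna4, at 0.16. Those of Ephb3, at -0.25, and Epha4, at -0.56, remained below 0. The ligand lay above the receptor in 9 of 12 pairs, with differences from -0.14 to 0.72. The interval left out 0 in 2 pairs in place of 5, Efnb1 with Ephb3 at 0.30 (0.08 to 0.51) and Efna4 with Epha4 at 0.72 (0.24 to 1.20). Efnb2 and Ephb3, the ligand and receptor of nearly equal exon length (6855 and 6641 bases), had log2 ratios of -0.22 and -0.28. Their difference of 0.05 (-0.59 to 0.68) rests on 61 and 37 counts of Efnb2, and its interval is too wide to show equal ratios.

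**Figure D5:**
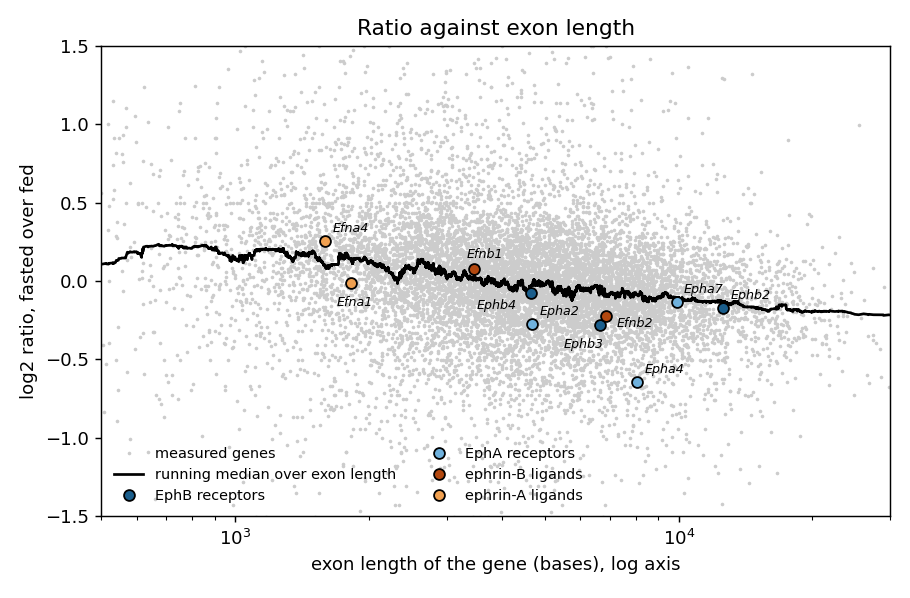
Log2 ratio, fasted over fed, against exon length in bases (log axis) for measured genes (grey) and members (coloured), with the running median over 201 genes as a black line; genes outside the axes are not drawn. Ephb2 and Epha7 lie on the line, Epha4, Ephb3, Epha2, Efna1 and Efnb2 below it and Efna4 above it.

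Levels of different genes were compared per kilobase of exon. In the fed library the order was Ephb4 at 82.8 CPM per kilobase, Efna4 at 41.2, Efna1 at 39.7, Ephb3 at 31.3, Efnb1 at 26.2 and Ephb2 at 18.4. Epha2 followed at 5.11, Epha4 at 2.67, Efnb2 at 1.27 and Epha7 at 0.449. Efna4 and Efna1 had overlapping counting intervals, and the other neighbours in this order did not. In the fasted library Efnb1, at 27.2 (24.8 to 29.7), and Ephb3, at 25.4 (23.8 to 27.2), stood in the reverse order and overlapped, and Epha4 (1.31 to 2.13) and Efnb2 (0.757 to 1.48) overlapped as well. These levels depend on the length used: with the principal transcript of each gene Ephb3 had 49.7 CPM per kilobase in the fed library and stood next to Ephb4, at 88.5.

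Of the 12 other Eph and ephrin genes, 2 passed the filter. Epha1, a receptor for Efna1, had 202 fed and 120 fasted counts, a log2 ratio of -0.25 (-0.59 to 0.08). It shares 236 exon bases with Zyx on the opposite strand. Efna3, which lies between Efna1 and Efna4 on chromosome 3 (89313899 to 89322965), had 133 and 147 counts, or 19.0 and 29.3 CPM. Its log2 ratio of 0.64 (0.29 to 0.99) was above those of both neighbours and did not reach 2-fold. Efnb3, an ephrin-B ligand with 17 fed and 2 fasted counts, stayed under the filter, with a log2 ratio of -2.59 (-5.75 to -0.52). Efna2 had 1 and 7 counts, Ephb6 had 1 and 2 and Epha3 had 0 and 1. Epha5, Epha6, Epha8, Epha10, Ephb1 and Efna5 had 0 counts in both libraries, for which a floor of 3 counts, a limit on the upper side alone, stands at 0.429 CPM (fed) and 0.598 CPM (fasted).

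Genes that carry Eph and ephrin signals were described by lists of forward signalling, reverse signalling, actin control and shedding, 66 genes of which 62 were measured. None was called higher and 3 were called lower, with a median log2 ratio of -0.08. Of 28 forward signalling genes 1 was called lower, Kalrn, an exchange factor for Rac (79 and 19 counts, log2 ratio -1.56, -2.36 to -0.82). The next lowest of that list was the kinase gene Fyn at -0.78 (-1.39 to -0.20), and the highest was the exchange factor gene Vav3 at 0.53 (0.29 to 0.78). Of 11 reverse signalling genes 1 was called lower, Grip1, a PDZ scaffold that binds ephrin-B tails (29 and 6 counts, -1.78, -3.33 to -0.48). Of 12 actin control genes 1 was called lower, Limk1, a kinase of cofilin (21 and 4 counts, -1.89, -3.90 to -0.33). The shares of all measured genes called are 2.51% higher and 1.91% lower, and these 3 genes rest on few reads.

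The shedding and adhesion list had 0 of 11 called and a median of 0.03. Calls took in 2.51% (higher) and 1.91% (lower) of all measured genes. Adam10, the protease that cuts ephrins and E-cadherin at Eph contacts, had 1291 fed and 924 fasted counts, with a ratio of 0.02 on the log2 scale (-0.11 to 0.14). Cdh1, which encodes E-cadherin, had 8338 and 5732 counts and -0.04 (-0.09 to 0.01). The furthest of this list were the gamma-secretase gene Aph1a at 0.73 (0.09 to 1.36) and the protease gene Adam17 at -0.40 (-0.65 to -0.16).

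WNT targets and TCF factors, which include the upstream control of Ephb2 and Ephb3, had 15 of 18 genes measured, 0 called higher and 1, Apcdd1 (84 and 29 counts, log2 ratio -1.04), called lower. Their median log2 ratio was -0.11, with 11 of 15 negative. Across all measured genes 2.51% were called higher, 1.91% were called lower and 52.1% had negative ratios. Ctnnb1, which encodes beta-catenin, had -0.19 (-0.24 to -0.14), Lgr5 had -0.49 (-0.57 to -0.40), the WNT target Axin2 had -0.30 (-0.37 to -0.23), and the factor genes Tcf7l2 and Tcf7 had -0.13 (-0.37 to 0.11) and 0.27 (0.05 to 0.49). The list ran from -1.04 to 0.29, and 4 of its genes were positive, among them Nkd1 at 0.29 (-0.11 to 0.70) and Ascl2 at 0.10 (-0.04 to 0.25). Ephb2 at -0.17 and Ephb3 at -0.28 lay inside that wide range, and a link to WNT control was not tested.

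Markers of other cells moved with the libraries. Absorptive enterocyte markers were called higher in 10 of 15 cases, 0 were called lower, and they summed to 1823 CPM (fed) and 3636 CPM (fasted). Of all measured genes 2.51% were called higher and 1.91% lower, and 52.1% had negative ratios. Fabp1 alone had 29.8 CPM (fed) and 806 CPM (fasted), and the 5 markers not called included Vil1 at a log2 ratio of -0.01 and Dpp4 at 0.03. Goblet cell markers were called higher in 3 of 8, 0 lower, with summed levels of 583 and 1176 CPM. Crypt-base stem cell markers had 13 of 14 negative ratios, 1 of them, Slc14a1, called lower, and a median of -0.34, with summed levels of 22282 and 14635 CPM, to which Olfm4 gave the most counts. The part of these cell types in the ligand and receptor values was not tested. The 11 stromal and muscle markers summed to 3.87 and 4.78 CPM, with Col3a1, Pdgfra, Des, Dcn and Lum at 0 in both libraries. Most of these sums came from Pdgfrb, the only gene of the list measured, with 14 and 18 counts (log2 ratio 0.86, -0.23 to 1.98). The 11 immune markers summed to 1044 and 808 CPM, of which Cd74, also made by epithelium, had 7196 and 4014 counts. The 3 measured immune markers all had intervals below a ratio of 1, as had 19.2% of all measured genes. Cd68, a macrophage gene, was called lower (25 and 6 counts, log2 ratio -1.56), and Itgam, a myeloid integrin gene, had 62 and 26 counts (-0.76), while Cd3g, Cd79a and Adgre1 had 0 in both libraries. Of enteroendocrine markers 0 of 5 were called.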

How the data were processed

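RNA was sequenced from 1 fed and 1 fasted library of GFP-high cells. The deposited counts are whole reads per Ensembl gene, and the authors also deposited a signal, those counts divided by 1 factor per library (1.19 and 0.842), per the file headers a table of normalized gene counts. FastQC, STAR, HTSeq and DESeq and the builds GRCm38 and mm10 are named, without roles, per the submitters' processing notes. The annotation behind the counting, and its strand setting, were not given in the sources used here.

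Of 45706 IDs, 45143 matched GENCODE M21 (GRCm38), which gave symbols, positions and exon lengths. Counts were scaled by median-of-ratios factors, and log2 ratios received Clopper-Pearson 95% intervals from the fasted share of reads (scipy 1.17.1). Measured genes had a mean of at least 1 CPM and at least 20 counts. With 1 library per group no test was run. The calling procedure was tested on simulated counts. Alternatives were TMM and upper-quartile factors (edgeR 4.0.16), total counts, the deposited signal, other filters and thresholds, and a length correction (running median, 201 genes). All members were named. Of the other lists, genes past the call rule, up to 2 measured genes with the largest ratios in either direction and fixed genes (Lgr5, Olfm4, Ascl2, Axin2, Adam10, Cdh1, Pecam1, Cdh5) could be named. Ctnnb1, Tcf7l2 and the further markers of endothelium, stroma and immune cells were chosen after their values were seen. Members and lists were chosen with earlier results of these data known. The principal-transcript length, the length correction of pairs and the restriction to Ephb2 and Ephb3 were chosen after seeing the data. The tuft cell marker list is not reported here.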

Additional observations from a re-analysis of the deposited data

How the results depend on the processing

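None of the 10 members was called under any scaling, filter, length correction or the 3-fold threshold, and 1, Epha4, was called lower at 1.5-fold. Over all genes, a threshold of 1.5-fold gave 614 higher and 607 lower calls in place of 302 and 230, one of 3-fold gave 124 and 88, and requiring a mean of 5 CPM gave 176 and 111. The receptor median ran from -0.27 to -0.14 over 8 alternatives and the ligand median from -0.04 (length correction) to 0.06 over 7. Their difference ran from 0.10 (EphB and ephrin-B genes only) to 0.39 (EphA and ephrin-A genes only) over 11. Scaling cancels in this difference, while length correction brought it to 0.11 and the filter at 5 CPM to 0.30. With Ephb2 and Ephb3 as the only receptors the difference, without length correction, was 0.26. Members with an interval below 1 numbered 4 under total counts, where Ephb4 joined, and 2 after length correction, where Ephb2 left. No paired analysis was possible because each group has 1 library. Depth limits Epha7 and Efnb2 the most, with 51 and 98 counts in all.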
